A study of Mus musculus with 4 samples.

Results

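Pachytene spermatocytes of the mouse testis were described from 4 single-cell RNA libraries. They were chosen from their own transcripts. Barcodes with at least 200 detected genes and at most 20% mitochondrial unique molecular identifiers (UMIs, 1 per captured RNA molecule) were kept. Each kept cell was scored on 7 marker sets, each score being the mean log-normalised level of the set's genes, standardised over all kept cells. A cell was counted as a pachytene spermatocyte when the set Piwil1, Pou2f2, Mybl1 and Pou5f2 gave its highest score and that score was above 1. The rule chose 8508 of 57727 kept cells (14.7%), with 2086 and 2525 cells in the HFD libraries and 2004 and 1893 in the ND libraries. The other 6 sets, cut the same way, gave early spermatocytes (5517 cells), late spermatocytes (7408 cells), early and late round spermatids, elongating spermatids and condensing spermatids. The remaining kept cells are called the cells of no class.

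The study set testes of mice on a high-fat diet against testes of a second diet group, which the labels write as HFD and ND. Each group had 2 libraries, made from testis digested with collagenase, dispase and DNase and barcoded with droplet-based 3′ chemistry, so that levels below count molecules and carry no gene length. Strain, age, diet composition and duration, and whether each library is a separate animal, are not given in the sources used here. Both groups share the same digestion and chemistry, and no transgene or treatment other than the diet is named. The p-values between diets therefore measure the spread between these libraries. Libraries held 143748262 to 154221188 UMIs, of which the pachytene cells held 33353949 to 43354287. Pairs of libraries shared 42 to 65 barcodes, and 0 to 2 among pachytene cells.

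Pachytene is the longest stage of the first meiotic prophase in the male. Homologous chromosomes are held together along their length by the synaptonemal complex while crossovers mature, and the X and Y chromosomes, which lack a partner along most of their length, are silenced inside the sex body. The stage also starts a large wave of testis-specific transcription and of pachytene piRNAs, for which the transcription factor A-MYB, encoded by Mybl1, is required. Piwil1 encodes MIWI, the PIWI protein that carries pachytene piRNAs, and Pou2f2 and Pou5f2 encode POU-domain transcription factors.

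Because A-MYB is a regulator known for this stage, the letters GGCAGTT, a core of its published motif, were searched on both strands in RefSeq promoters of build GRCm38.p6, from 250 bases before to 50 bases after each gene start. The 4 example windows are shown because they place the letters in genes whose level was highest in pachytene cells. They are the promoter of the marker Piwil1 and those of Akr1e1, Mgll and Bscl2, and they were chosen after the values were seen. Each is printed 5′ to 3′ on the strand of the gene up to the gene start, with the matching letters (GGCAGTT, or AACTGCC when read from the opposite strand) in capitals. The windows are chr5:128735996-128736245 on the plus strand, chr13:4609165-4609414 on the minus strand, chr6:88724454-88724703 on the plus strand and chr19:8839078-8839327 on the plus strand.

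Piwil1: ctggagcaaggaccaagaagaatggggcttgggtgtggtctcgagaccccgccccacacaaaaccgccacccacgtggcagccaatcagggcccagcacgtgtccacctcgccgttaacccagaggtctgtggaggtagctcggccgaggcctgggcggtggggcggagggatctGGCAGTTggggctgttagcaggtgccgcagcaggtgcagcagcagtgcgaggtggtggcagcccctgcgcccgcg
Akr1e1: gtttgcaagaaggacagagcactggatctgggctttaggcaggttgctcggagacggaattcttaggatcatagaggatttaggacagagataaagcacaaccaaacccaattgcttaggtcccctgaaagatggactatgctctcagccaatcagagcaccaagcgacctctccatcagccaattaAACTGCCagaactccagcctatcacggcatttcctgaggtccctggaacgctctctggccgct
Mgll: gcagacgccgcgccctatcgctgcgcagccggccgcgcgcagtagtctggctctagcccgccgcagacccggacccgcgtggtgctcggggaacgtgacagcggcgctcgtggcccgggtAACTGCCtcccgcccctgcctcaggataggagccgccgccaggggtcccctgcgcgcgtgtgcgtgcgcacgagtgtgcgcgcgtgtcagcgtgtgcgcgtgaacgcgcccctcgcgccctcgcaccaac
Bscl2: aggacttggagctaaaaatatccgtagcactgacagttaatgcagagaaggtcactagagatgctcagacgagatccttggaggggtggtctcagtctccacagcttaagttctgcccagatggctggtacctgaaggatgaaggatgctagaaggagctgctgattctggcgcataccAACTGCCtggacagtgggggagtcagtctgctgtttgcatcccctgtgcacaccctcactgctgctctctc

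The match began 75 bases before the gene start in Piwil1, 63 in Akr1e1, 130 in Mgll and 71 in Bscl2. Akr1e1, an aldo-keto reductase gene, stood at 116 ± 5.40 CPM (the gene's UMIs scaled to a common total of UMIs per class and library; SD, n = 4 libraries), 1.32 times its highest level in any other class. Mgll, which encodes monoacylglycerol lipase, stood at 339 ± 13.2 CPM and 1.30 times, and Bscl2, which encodes the lipid droplet protein seipin, at 435 ± 9.88 CPM and 1.24 times. The letters were not more frequent in genes of this kind than elsewhere. Among the 100 genes highest in pachytene cells relative to other classes, 79 matched the promoter table with 96 windows, and 4 windows (4.17%) held GGCAGTT. The share was 4.12% of all 32851 windows of the table and 5.04% of windows of genes that reached 50 CPM in any class. The letters TGACGT, part of the site bound by CREB-family factors, stood in 18.8% of the 96 windows, 12.8% of windows of genes at 50 CPM and 7.51% of all windows. The letters CCTCAG, part of the site of the meiotic entry factor STRA8, stood in 32.3%, 28.1% and 26.8%. Neither was particular to pachytene cells: the 84 windows of the 100 genes highest in early spermatocytes held TGACGT in 20.2% and CCTCAG in 40.5%. The median GC content was 61% in the 96 windows and 52.7% in all windows. Matches of different motifs may overlap, the shares carry no test, and a match is not a bound site.

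The markers of the rule were found in most chosen cells, which follows from the choice and is given as a description. Piwil1 stood at 905 ± 33.4 CPM in pachytene cells (mean ± SD, n = 4 libraries), against 788 in early and 189 in late spermatocytes. Pou2f2 stood at 181 ± 21.9 CPM, against 103 and 30.9. Mybl1 was flatter, at 93.4 ± 5.27 CPM against 78.2 and 68.1. Pou5f2 stood at 200 ± 15.1 CPM, against 79.0 in early and 168 in late spermatocytes. At least 1 UMI of Piwil1 was seen in 96.7 to 97.2% of pachytene cells per library, of Pou2f2 in 77.7 to 79.7%, of Mybl1 in 68.7 to 77.3% and of Pou5f2 in 73.4 to 82.6%. In condensing spermatids, which have largely stopped transcription, the same shares were 26.7 to 33.1%, 4.44 to 5.23%, 6.34 to 8.47% and 16.3 to 23.7%. The median depth was 18417 UMIs per pachytene cell and 3733 per condensing spermatid. All 4 markers had a UMI in 4090 cells, 3 in 2686, 2 in 1730 and 1 in 2.

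Of 12 pachytene genes that the rule did not use, 3 had their highest level in the chosen cells (Ldhc, Hspa2 and Tcfl5), 3 in early spermatocytes, 3 in late spermatocytes and 3 in a spermatid class. Hist1h1t, the testis linker histone that appears in mid pachytene, stood at 83.8 ± 2.05 CPM in pachytene cells, 88.9 in early and 19.1 in late spermatocytes. Sycp3, of the lateral element of the synaptonemal complex, stood at 453 ± 11.1 CPM, 715 in early and 273 in late spermatocytes. Sycp1, the transverse filament that closes the complex, stood at 345 ± 34.0 CPM, 705 and 83.1. Ldhc, the germ cell lactate dehydrogenase, reached 9527 ± 207 CPM, 7523 and 9393. Hspa2, the meiotic chaperone, reached 1712 ± 22.9 CPM, 1656 and 1575. Clgn, Tbpl1 and Meig1 were highest in late spermatocytes and Adam3 in early round spermatids. Pgk2, the testis phosphoglycerate kinase gene, stood at 150 ± 4.58 CPM, its lowest level of any class, and reached 1299 in condensing spermatids. Calr3, a testis calreticulin gene, stood at 8.09 ± 0.815 CPM against 325 in elongating spermatids. The levels outside the rule therefore did not single out these cells as pachytene: Sycp1, Sycp3 and Hist1h1t were all higher in early spermatocytes, and 3 of 12 genes peaked here against 17.5% of all genes that reached 20 CPM in any class. The name is used here as that of the marker list that chose the cells. The second-highest score was that of early spermatocytes in 4647 cells (54.6%) and of late spermatocytes in 2369 (27.8%).

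The border of the class was not sharp. Within 0.1 above the score of 1 stood 307 members, with a median of 3804 UMIs. Within 0.1 below it stood 233 cells with the same highest score and a median of 3577 UMIs. A pachytene score above 1 but a higher score for another set excluded 3006 cells, of which 1635 scored higher as early and 1119 as late spermatocytes. Members ranged from 1148 to 144748 UMIs, and 2366 had fewer than 5000. These shallow members gave 3.94% of the UMIs. They stood at 179 ± 44.5 CPM for Sycp1 and 39.6 ± 4.02 CPM for Hist1h1t, against 352 ± 34.1 and 85.6 ± 2.18 CPM in deeper members. Prm1, a protamine gene of late spermatids, stood at 4024 ± 639 CPM in shallow and 1085 ± 129 CPM in deeper members, and mitochondrial UMIs took 3.28 ± 0.474% and 0.684 ± 0.0185%. The levels summed per library below rest mostly on the deeper cells. A doublet caller (Scrublet) marked 501 members (5.89%).

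No gene outside the rule set pachytene cells apart by more than 2-fold. Of 3643 genes at 50 CPM or more in pachytene cells, 0 were over 2-fold above their highest level in any other class. The largest ratios were 1.58 for the predicted gene Gm17315 (51.3 ± 3.17 CPM) and 1.56 for 4930581F22Rik (225 ± 22.5 CPM). Fbn2, a fibrillin gene, had a ratio of 1.5 (87.9 ± 1.39 CPM, next 58.6 in early spermatocytes). Timm8a2, a mitochondrial import chaperone gene, had 1.48, and Aldh9a1, an aldehyde dehydrogenase gene, had 1.47. Sdf2l1, of the endoplasmic reticulum chaperone complex, stood at 336 ± 8.19 CPM against 240 in early spermatocytes. Baz1a, which encodes the chromatin remodelling subunit ACF1, stood at 605 ± 6.59 CPM against 446. Phf2, a histone demethylase gene, had a ratio of 1.41, and Keap1, the sensor that holds back the antioxidant factor NRF2, had 1.35 (103 ± 2.84 CPM).

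The 20 largest ratios ran from 1.58 to 1.34, with early spermatocytes the next highest class for most of them. The other 11 were 4933402N22Rik, B3gnt4, Vamp5, Eif2b1, Gm8879, Cdh2, AC140207.3, Gm16976, Snhg3, Rassf1 and Tmem175. Among the genes lowest in pachytene cells relative to both neighbours was Ccnb1, which encodes cyclin B1 of the division kinase. It stood at 28.4 ± 2.13 CPM, against 68.7 in early and 219 in late spermatocytes. The other 5 were Spaca1 (31.0 ± 3.98 CPM against 76.5 and 78.9) and Acrv1 (25.6 ± 3.92 CPM against 59.7 and 58.7), both of the acrosome, Fam24a, Tsc22d4 and Armh2. Each of these 5 reached 444 to 696 CPM in early round spermatids. The median depth was 3123 UMIs per early and 6820 per late spermatocyte. The part of free RNA in the levels of those shallower classes was not tested.

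Summed over each class, transcripts of the X chromosome were at their lowest in pachytene cells. They took 0.0854 and 0.0912% of UMIs in the HFD libraries and 0.0971 and 0.104% in the ND libraries. Early spermatocytes stood at 0.303 ± 0.0382%, late spermatocytes at 0.181 ± 0.0203% and early round spermatids at 0.910 ± 0.0304%. In every library the pachytene share was below that of each other class. Both HFD libraries lay below both ND libraries, with means of 0.0883 ± 0.00410% and 0.101 ± 0.00522% (SD, n = 2). The exact two-sided permutation p was 0.33, the smallest that 2 libraries against 2 can give. This order was not seen in pachytene cells alone: the HFD libraries also lay below the ND libraries in early spermatocytes (0.283 and 0.269 against 0.356 and 0.304%), late spermatocytes (0.175 and 0.155 against 0.199 and 0.196%), early round spermatids (0.891 and 0.877 against 0.932 and 0.940%), elongating spermatids (1.56 and 1.54 against 1.58 and 1.57%) and cells of no class (0.777 and 0.752 against 0.956 and 0.963%). In members under 5000 UMIs the share was 0.346 ± 0.0316%, against 0.0835 ± 0.00778% in deeper members. These 2 shares are of all UMIs, and those above leave out mitochondrial UMIs. The mean of the shallow members was above those of early and late spermatocytes, whose median depths were 3123 and 6820 UMIs per cell. The part of depth in the order of the classes was not tested.

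**Figure D1:**
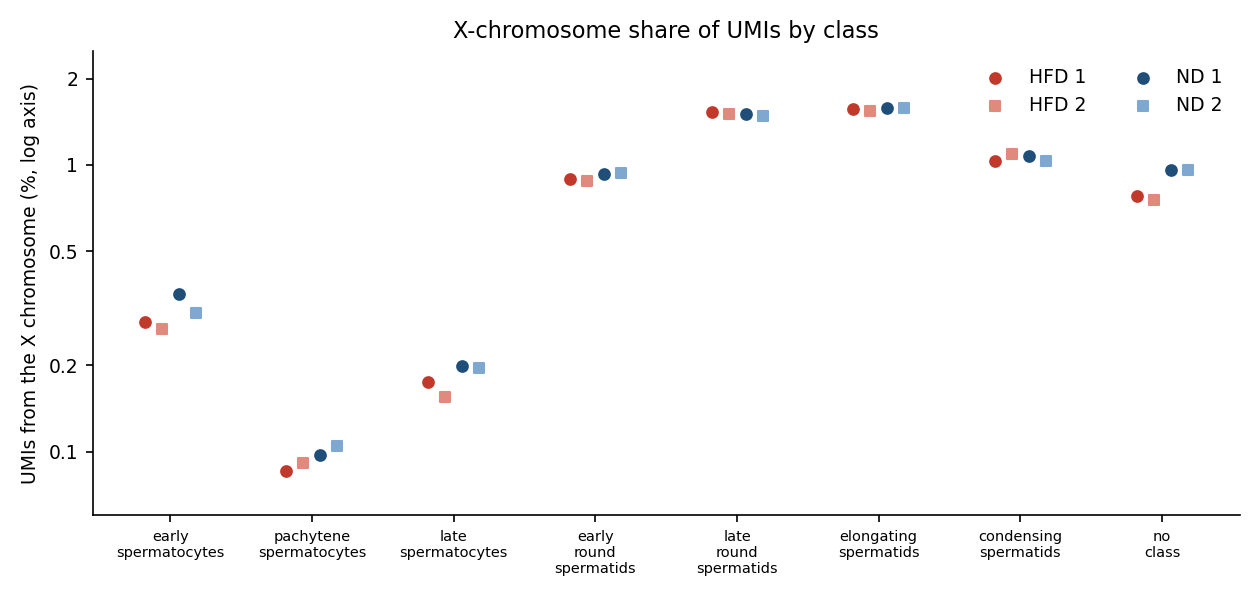
Percent of UMIs from the X chromosome (log axis) in each class, with 1 point per library (HFD 1, HFD 2, ND 1, ND 2). Pachytene spermatocytes have the lowest share, 0.0854 to 0.104%, and late round and elongating spermatids the highest.

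Housekeeping genes on the X were low, while the autosomal copies thought to stand in for them during silencing were present without peaking at this stage. The counts of highest levels that follow leave out the cells of no class. Of 12 X-linked parent genes, 0 had their highest level in pachytene cells, 5 in early spermatocytes and 7 in a spermatid class. Of the 12 autosomal copies, 1 (Pdha2) had its highest level in pachytene cells, 3 in early spermatocytes, 4 in late spermatocytes and 4 in a spermatid class, with a median log2 ratio of -0.13 to early and -0.21 to late spermatocytes. Pgk1, the somatic phosphoglycerate kinase gene, stood at 7.16 ± 0.237 CPM, and its autosomal retrogene Pgk2 at 150 ± 4.58 CPM, against 167 in early and 335 in late spermatocytes. Pdha1, of the pyruvate dehydrogenase complex, stood at 0.199 ± 0.0255 CPM and Pdha2 at 327 ± 14.7 CPM. Rbmx, an RNA-binding protein gene, stood at 0.307 ± 0.0351 CPM and Rbmxl2 at 273 ± 26.1 CPM. Rpl39, of the large ribosomal subunit, stood at 5.09 ± 0.928 CPM and Rpl39l at 1207 ± 27.5 CPM. The genes of a pair differ in sequence and their 3′ counts are not adjusted for capture.

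Gene lists of the stage divided by function, and these levels are given without a test. Counts of where the genes of a list were highest leave out the cells of no class. As a reference, 17.5% of the 8775 genes that reached 20 CPM in any class had their highest level in pachytene cells and 24.1% in early spermatocytes. The structural lists had mostly passed their peak. Of 15 genes of the synaptonemal complex and meiotic axis, 1 was highest in pachytene cells (Stag3, a meiotic cohesin gene, 201 ± 2.84 CPM) and 10 in early spermatocytes. Of 20 recombination and crossover genes, 3 were highest in pachytene cells. They were Spo11, of the enzyme that cuts DNA to start recombination (132 ± 1.73 CPM), Hsf2bp (143 ± 3.83 CPM) and Psmc3ip (594 ± 4.80 CPM), and 15 were highest in early spermatocytes. Of 17 genes of the sex body and DNA damage signalling, 0 were highest in pachytene cells and 14 in early spermatocytes. Atr, the kinase that drives sex chromosome silencing, stood at 203 ± 3.45 CPM against 244 in early and 110 in late spermatocytes. Topbp1, its activator, stood at 48.2 ± 4.43 CPM against 93.6 and 9.97.

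Of 21 piRNA pathway genes, 4 were highest in pachytene cells. Mael, of the germ granule called nuage, stood at 1038 ± 33.7 CPM, against 864 in early and 865 in late spermatocytes. Tdrd6, a scaffold of the chromatoid body, stood at 326 ± 14.7 CPM against 249 and 302. Tcfl5, a transcription factor gene of pachytene piRNA loci, stood at 675 ± 23.3 CPM against 537 and 588, and Pld6, a piRNA-processing nuclease gene, at 140 ± 5.42 CPM. Of 21 testis genes known to start around pachytene, 8 were highest in pachytene cells. Besides Ldhc, Hspa2 and Pdha2 they were Adam2, Ybx2, Ybx3, Cox6b2 and Cox8c. Ybx3, an RNA-binding protein gene, reached 3336 ± 75 CPM and Ybx2, which holds mRNA in store for spermatids, 1659 ± 14.0 CPM. Of 22 genes for exit from prophase and division, 3 were highest in pachytene cells (Cdk2, Cks2 and Ttk), and 10 in late spermatocytes.

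Energy genes split by genome. Of 25 nuclear respiratory chain subunits, 12 were highest in pachytene cells, such as Ndufb10 of complex I (484 ± 7.53 CPM) and Uqcrc1 of complex III (454 ± 16.6 CPM). Of 13 subunits encoded by mitochondrial DNA, 0 were highest there and, with cells of no class left out, 13 were highest in early spermatocytes. mt-Co1 stood at 441 ± 20.2 CPM in pachytene cells and 861 in early spermatocytes. Mitochondrial UMIs took 0.788 ± 0.0459% in pachytene cells and 1.71 ± 0.114% in early spermatocytes, and depth moves with this contrast. Their share in cells of no class was higher still, at 2.13 ± 0.209%. For glucose and lactate use, 3 of 17 were highest in pachytene cells: the glucose transporter gene Slc2a3 (1104 ± 6.37 CPM), Ldha (1278 ± 21.2 CPM) and Ldhc. The counts were 3 of 23 for antioxidant genes, 2 of 16 for heat shock chaperones, 2 of 18 for cholesterol synthesis, 1 of 20 for fatty acid oxidation and uptake, 1 of 22 for apoptosis and 0 of 15 for endoplasmic reticulum stress.

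The pachytene cells were ordered by late minus early spermatocyte score and divided into 4 bins of equal size, from early-like (bin 1) to late-like (bin 4). Both scores took part in the rule, so graded levels follow in part from the ordering itself. Tex12, of the central element of the synaptonemal complex, stood at 132, 86.5, 57.4 and 32.4 CPM in bins 1 to 4. Sycp1 stood at 546, 361, 257 and 170 CPM. Hist1h1t went from 119 to 44.5 CPM and the marker Piwil1 from 1188 to 586 CPM. In the other direction, the marker Pou5f2 stood at 119, 173, 231 and 308 CPM. Adam3, of the sperm surface complex for egg binding, went from 306 to 552 CPM and Tbpl1, a testis TATA-binding protein relative, from 612 to 1010 CPM. Plk1, the polo kinase that drives exit from prophase, stood at 18.1, 23.8, 30.6 and 52.8 CPM. The markers thus differed among themselves: Piwil1 and Pou2f2 were higher in early-like cells and Pou5f2 in late-like ones.

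**Figure D2:**
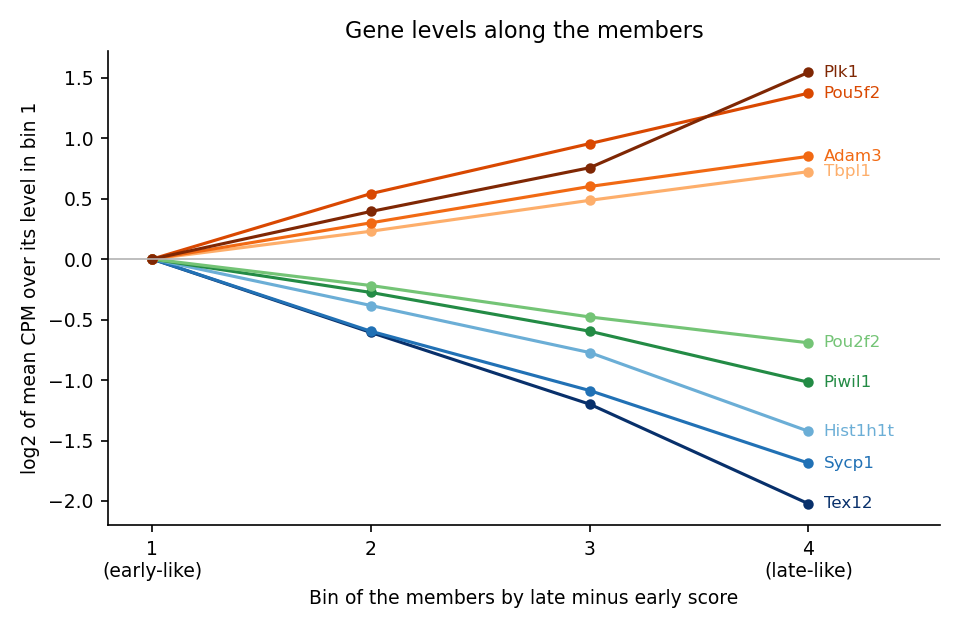
Mean CPM over 4 libraries of 9 genes in each bin of the pachytene cells, as log2 relative to bin 1, against the bin by late minus early score. Tex12, Sycp1, Hist1h1t, Piwil1 and Pou2f2 decline, and Tbpl1, Adam3, Pou5f2 and Plk1 climb.

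Of 5987 genes at 20 CPM or more, 173 were over 2-fold higher in bin 4 than in bin 1 and 245 over 2-fold lower. The largest ratios upward were those of Kbtbd11 (17.1 CPM in bin 1, 76.3 in bin 4), the DNA glycosylase gene Neil3 (15.3 and 67.4) and Ddit4l, an inhibitor of mTOR signalling (17.3 and 71.8). Downward they were those of the zinc finger gene Maz (50.9 and 7.77), Rnf227 (85.0 and 15.5) and Gm49794 (114 and 25.1). Dazl, a germ cell RNA-binding protein gene, went from 113 to 28.6 CPM. Some genes hardly moved: Spo11 stood at 134 CPM in bin 1 and 128 in bin 4, and Stag3 at 209 and 188. Bin 4 held shallower cells, with a median of 3731 ± 862 UMIs over libraries against 17690 to 24369 in the other bins. The order used the score genes, so these levels describe the bins and carry no test.

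Pachytene cells took a larger share of cells in the HFD libraries. The share was 15.4 and 17.6% in HFD and 13.1 and 13.0% in ND, and the exact 95% binomial intervals, which cover counting error only, ran from 14.8 to 16, 17.0 to 18.2, 12.6 to 13.7 and 12.4 to 13.5%. The groups did not overlap. The log2 ratio of HFD over ND was 0.34 (SE 0.07, adjusted p = 0.00329, edgeR's quasi-likelihood test on cell numbers over 8 categories). The exact two-sided permutation p of the share was 0.33, the smallest possible here. Late spermatocytes had a log2 ratio of 0.53 and early spermatocytes of 0.22, both higher in HFD (adjusted p = 0.000227 and 0.00988). Early and late round spermatids had -0.29 and -0.33, both lower (adjusted p = 0.000743 and 0.000731). These are shares of 1 whole per library, and a larger count of pachytene cells and a smaller count of other recovered cells cannot be told apart. Markers of the rule also differed outside the class. Piwil1 and Pou5f2 were detected more often in both HFD libraries in each other class and in cells of no class. Mybl1 was too, except in early spermatocytes, where it overlapped. Pou2f2 was mixed: it overlapped in early round spermatids and was detected less often in both HFD libraries in early spermatocytes. Piwil1 had a UMI in 37.2 and 38.4% of cells of no class in HFD and 30.4 and 31.1% in ND. Mybl1 had a UMI in 24.5 and 24.2% of early round spermatids in HFD and 19.1 and 19.5% in ND. The part of such shifts in the share was not tested. Under the 7 alternatives that changed the cells, the denominator or the block, the log2 ratio was 0.27 to 0.34.

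The mix of pachytene cells over the bins is given as a description with no test, because its scores took part in choosing the cells. Cells with a late score above 0 made up 60.1 and 59.3% of members in HFD and 50.9 and 52.6% in ND. The mean late score was 0.157 and 0.136 in HFD against -0.0183 and -0.00649 in ND. Bin 4 held 27.9 and 26.7% of the HFD members and 23.4 and 21.2% of the ND members. In each of these 3 measures the groups did not overlap. The mean early score overlapped between diets (0.451, 0.460, 0.419 and 0.480), as did the median depth (21748, 17830, 16496 and 18574 UMIs per cell) in the order HFD 1, HFD 2, ND 1, ND 2. Among members chosen with a score of at least 1.5 the early score did not overlap, at 0.640 and 0.633 in HFD and 0.556 and 0.598 in ND. The depth of bin 4 did not overlap either, with median UMIs of 4485 and 4457 (HFD) against 3127 and 2854.5 (ND). Members under 5000 UMIs made up 25.8 and 26.5% in HFD and 31.4 and 27.9% in ND. The part of depth in the mix was not tested.

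**Figure D3:**
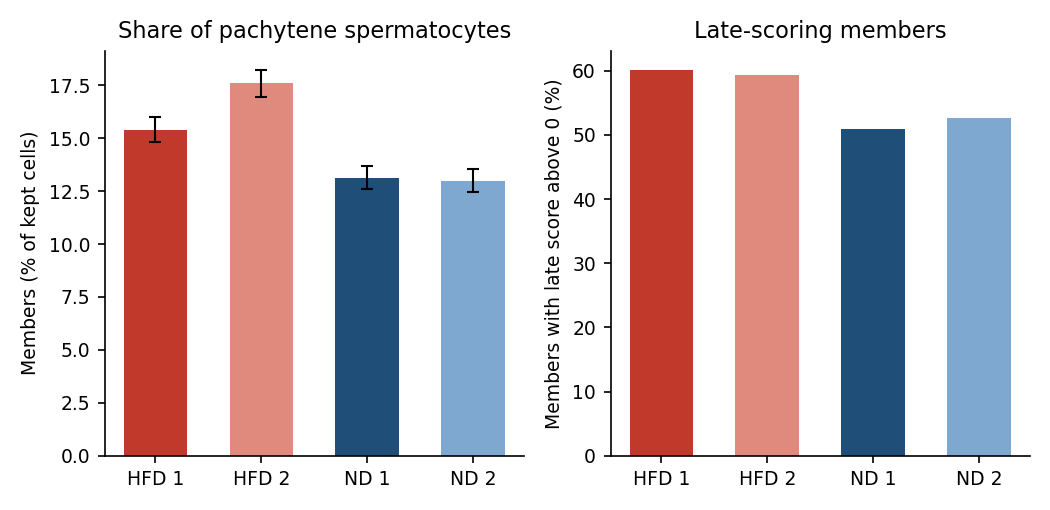
Left, pachytene spermatocytes as percent of kept cells in each library, with exact 95% binomial intervals; right, percent of pachytene spermatocytes with a late score above 0. Both HFD libraries stand above both ND libraries in each panel, at 15.4 and 17.6% against 13.1 and 13.0% and at 60.1 and 59.3% against 50.9 and 52.6%.

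Counts of pachytene cells were then summed per library and compared between diets. Levels in this and the following comparisons are CPM after TMM scaling. Of 18356 genes tested, 681 (3.71%) passed an adjusted p of 0.05 in edgeR's quasi-likelihood test, 405 higher in HFD (2.21%) and 276 lower (1.5%). Most differences were small: the median size was 0.27 on the log2 scale and 86 genes changed by more than 1.5-fold. The median over all tested genes was -0.01. Among tested genes at 20 CPM or more, the groups did not overlap in 59.4%. The count of calls was 327 without HFD 1, 1122 without HFD 2, 1948 without ND 1 and 657 without ND 2, and DESeq2 called 372.

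The largest rises at 20 CPM or more were those of a pair of neighbours on chromosome 18. Psmg2, a chaperone of proteasome assembly, stood at 76.1 and 79.0 CPM in HFD and 41.6 and 38.8 in ND (log2 0.95, SE 0.05, adjusted p = 2.2e-07). Ptpn2, a protein tyrosine phosphatase that damps JAK-STAT signalling, stood at 32.4 and 30.2 against 16.5 and 16.3 CPM (log2 0.93, SE 0.06, adjusted p = 3.99e-06). In both genes each HFD library was above each ND library, which the rule for naming genes required. The ratio of Psmg2 did not depend on the bin a cell lay in: it was 1.91, 1.92, 1.94 and 2.0 in bins 1 to 4. The pair also rose in the 3 other classes that were fitted, each on its own. Psmg2 had a log2 change of 0.90 in early spermatocytes, 1.07 in late spermatocytes and 0.91 in early round spermatids, and Ptpn2 had 1.11, 0.94 and 1.16.

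A second pair of neighbours, on chromosome 13 and on opposite strands, also rose. 3110070M22Rik, annotated as protein coding, stood at 237 and 224 CPM in HFD and 159 and 154 in ND (log2 0.56, SE 0.04, adjusted p = 7.02e-06). Tmem267 stood at 194 and 192 against 133 and 137 CPM (log2 0.51, SE 0.04, adjusted p = 7.02e-06). Both genes also passed in early spermatocytes, late spermatocytes and early round spermatids, each fitted on its own. The log2 changes were 0.64, 0.48 and 0.46 for 3110070M22Rik and 0.53, 0.32 and 0.39 for Tmem267. The 2 genes overlap in the annotation from 119488039 to 119488383, and a strand setting of the counting is not given in the sources used here, so their reads may not be separable.

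Genes of the late-like bins were next. Ddit4l stood at 46.7 and 41.6 CPM in HFD and 29.0 and 30.3 in ND (log2 0.57, SE 0.06, adjusted p = 0.000202). Kbtbd11, the steepest climber along the bins, stood at 43.6 and 41.4 against 31.8 in both ND libraries (log2 0.42, SE 0.05, adjusted p = 0.000643). Ccdc178 stood at 119 and 113 against 89.3 and 84.9 CPM (log2 0.41, SE 0.04). Ddit4l also passed in early spermatocytes (log2 0.85), late spermatocytes (0.35) and early round spermatids (0.31), each fitted on its own. Kbtbd11 passed in early spermatocytes (0.42) and not in late spermatocytes (0.14) or early round spermatids (0.06). Within each bin Ddit4l was higher in both HFD libraries, with ratios of 1.2, 1.41, 1.30 and 1.40, and so was Kbtbd11, with 1.19, 1.28, 1.19 and 1.16. The bins divide the same cells in which a gene was called, so bin ratios here and below are no separate evidence. Over all tested genes at 20 CPM or more the groups did not overlap in 59.4% before that division. The other 5 of the 12 largest rises were uncharacterised transcripts: Gm33340 (log2 0.54), 4930556C24Rik (0.50), Gm31072 (0.43), Gm48544 (0.42) and Taco1os (0.41). Gm33340 also passed in early spermatocytes, late spermatocytes and early round spermatids. 4930556C24Rik and Gm48544 passed in early and late spermatocytes, and Gm31072 in early spermatocytes and early round spermatids. Gm31072 was uneven within ND, at 529 and 409 CPM against 647 and 620 in HFD. So was Taco1os, at 58.9 and 44.2 CPM against 65.6 and 71.7 in HFD. Both lost the call with DESeq2. Gm48544 was the only one of the 12 besides Psmg2 and Ptpn2 with a lower level in bin 4 than in bin 1.

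The largest fall at 20 CPM or more was that of Ptgds, which encodes a prostaglandin D2 synthase. It stood at 24.4 and 24.1 CPM in HFD and 41.5 and 52.5 in ND (log2 -0.96, SE 0.08, adjusted p = 3.64e-05). The change was -0.38 (adjusted p = 0.117) when cells marked by the doublet caller were left out. Ptgds was highest in cells of no class, at 2241 CPM against 35.7 in pachytene cells. Tmsb4x, the actin-binding thymosin beta 4 gene on the X, stood at 18.1 and 21.6 against 25.1 and 33.3 CPM (log2 -0.56, SE 0.11, adjusted p = 0.0138). The fall of Tmsb4x was not even over the bins: its ratio was 1.24 in bin 1, where the groups overlapped, and 0.47 in bin 2. Tmsb4x was also highest in cells of no class, at 430 CPM against 24.6 in pachytene cells. Fbxo44, of a ubiquitin ligase, stood at 18 and 18.5 against 23.9 and 24.2 CPM (log2 -0.40, SE 0.06, adjusted p = 0.00378). Genes of spermatid structures followed. Spag4, of the sperm tail, stood at 24.2 and 25.6 against 30.6 and 34.6 CPM (log2 -0.39). Akap3, the anchor of protein kinase A in the tail sheath, stood at 24.6 and 28.0 against 32.5 and 34.0 CPM (log2 -0.34). The acrosomal genes Spaca4 and Spaca3 had log2 changes of -0.35 and -0.34, and Samd4, an RNA-binding protein gene, of -0.34. The remaining falls were those of Cypt1 (-0.35), 1700012B07Rik (-0.41), 1700029I15Rik (-0.40) and Gm15517 (-0.34). Calls were lost without HFD 1 for Akap3 (adjusted p = 0.0556) and Gm15517 (0.0958), without ND 2 for Spaca4 (0.0861), and in members with at least 5000 UMIs for Tmsb4x (0.435).

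**Figure D4:**
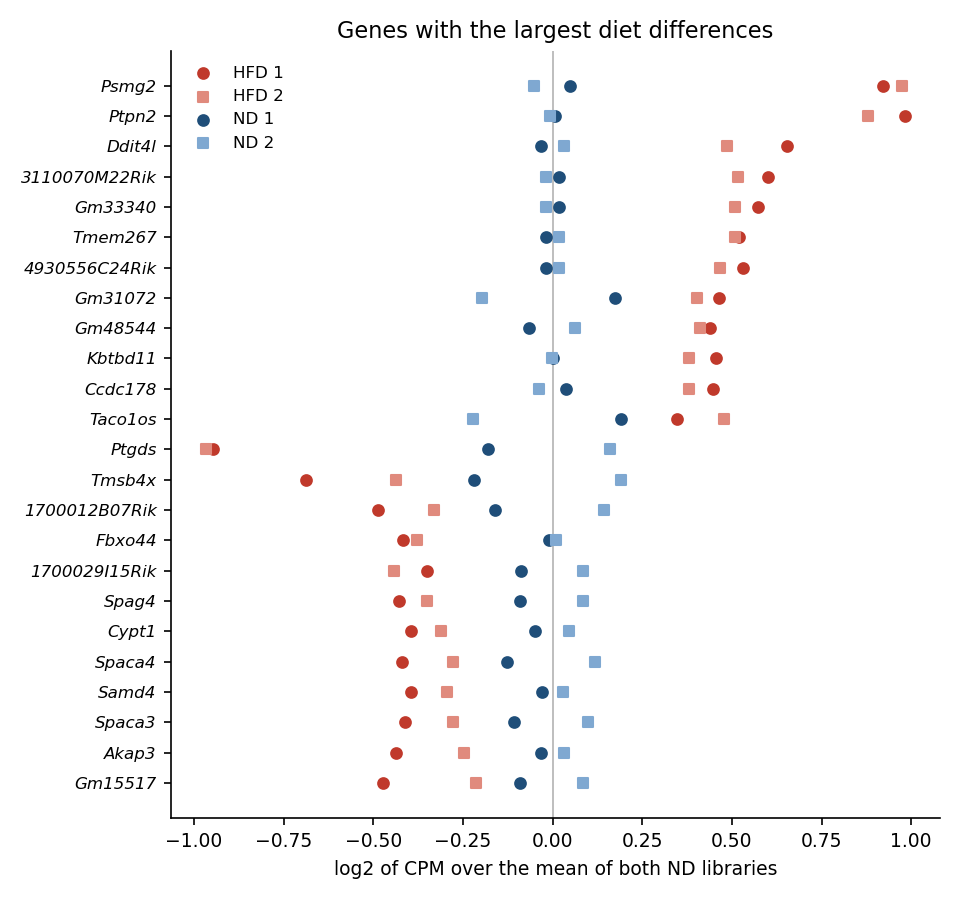
The 12 genes highest and 12 lowest in HFD by size of change among called genes at 20 CPM or more: log2 of CPM in each library over the mean of both ND libraries, 1 point per library. The rule that chose the genes required both HFD points to lie on the same side of both ND points. They lie farthest for Psmg2, Ptpn2 and Ptgds.

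Summed marker levels of other cell types moved with the falls. Markers of elongating spermatids (6 of 6 detected) summed to 2761 and 2937 CPM of the pachytene UMIs in HFD and 3078 and 3253 in ND. Leydig cell markers (6 of 6) summed to 33.0 and 31.0 against 35.1 and 52.8 CPM, Sertoli cell markers (7 of 7) to 14.7 and 17.3 against 20.9 and 25.2, and macrophage markers (6 of 6) to 9.18 and 9.60 against 12.9 and 13.6. Spermatogonial markers (6 of 6) summed to 3.69 to 4.15 CPM in all libraries. Red cell markers (3 of 4 detected) were at 0.21 CPM or less, with Hba-a2 at 0. Of the single markers, the Leydig gene Insl3 (log2 -0.37), the Sertoli genes Ctsl (-0.38) and Aard (-0.57) and the spermatid gene Tnp1 (-0.18) fell. The HFD libraries also held smaller shares of round spermatids and of cells of no class. The part of RNA from other cells in the falls of Ptgds, Tmsb4x, Acadm, Hmgcs1, Hspe1, Hspa1b and the spermatid genes was not tested. Nor was it for Tpi1, Gpi1, Prdx4 and Bcl2l11, which were highest in a spermatid class.

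Genes called higher in HFD were mostly those of the late-like bins. Of 296 genes called higher at 20 CPM or more, 230 (77.7%) had their highest level in late spermatocytes, against 22.6% of the 5987 tested genes at that level, and 270 (91.2%) were higher in bin 4 than in bin 1, against 44.4%. Genes called lower did not share this: of 134, 59 (44.0%) were higher in bin 4. Of the 134, 52 were highest in early spermatocytes, against 1605 of the 5987, and 75 (56.0%) in a spermatid class, against 22.0%. Across those 5987 genes the diet change and the log2 ratio of bin 4 to bin 1 had Pearson's r of 0.59 and Spearman's rho of 0.60. Both values come from the same 4 libraries and genes are not independent, so the correlation is a description.

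**Figure D5:**
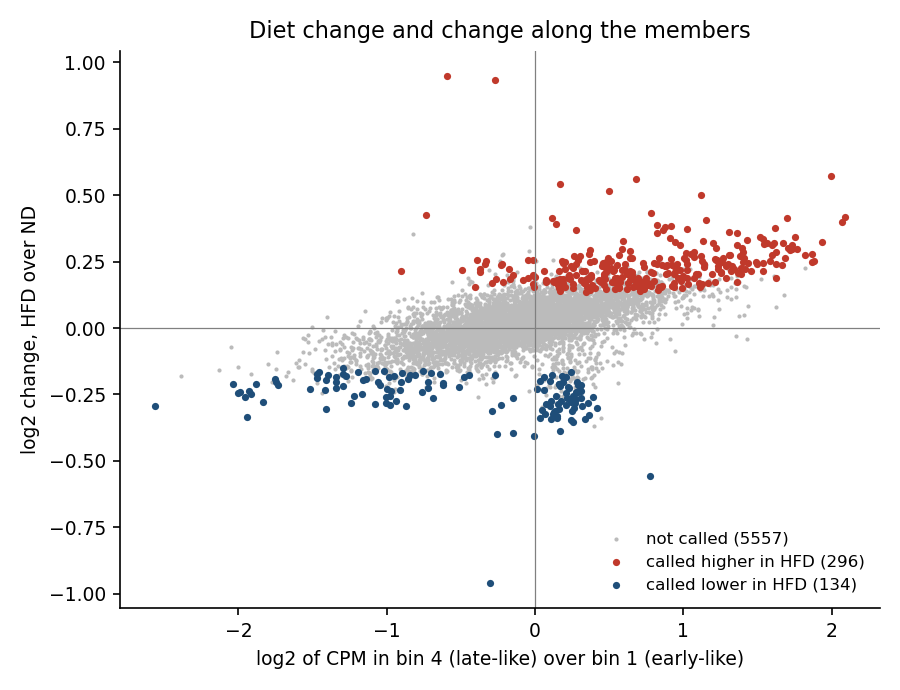
Log2 change of HFD over ND against log2 of CPM in bin 4 over bin 1 for the 5987 tested genes at 20 CPM or more, with 1 point per gene; red points were called higher and blue points lower in HFD. Of the 296 higher genes, 270 lie right of 0.

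The comparison was therefore repeated after drawing the same number of members per bin from each library (7208 cells in all). Depth per cell was not evened, so the bins could still weigh differently between diets in the summed counts. Before the draw, bin 4 had a median of 4485 UMIs per cell (HFD 1), 4457 (HFD 2), 3127 (ND 1) and 2854.5 (ND 2). Bin 2 was also deeper in both HFD libraries, while bins 1 and 3 overlapped. The draw reuses the same cells, so calls kept in it are no separate evidence. The part of the mix in them was not tested. The call count was 371, with 164 higher and 207 lower, and 310 of the calls were shared with the full set. Of the 405 genes called higher before, 158 were still called, and of the 276 called lower, 152. All 678 of the earlier calls that could be tested kept their sign, with a median size of 0.24 against 0.27 on the log2 scale. All 24 genes with the largest changes named above kept their call. Psmg2 had a log2 change of 0.97, Ddit4l of 0.43 and Ptgds of -0.78 in this draw. In the 3740 members with a late score below 0, 44 genes passed, 22 in each direction, and 43 of them had passed before. Of the 24 genes, 4930556C24Rik, Gm31072, Kbtbd11, Tmsb4x, 1700012B07Rik, 1700029I15Rik, Spag4, Spaca4, Spaca3 and Gm15517 lost the call there. The mean late score of the members below 0 still differed, at -0.465 and -0.485 in HFD and -0.567 and -0.549 in ND. Fewer cells entered both repeats, and the part of that in the lower counts was not tested.

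Lists of meiotic function held 1 or 2 calls each, which in lists of this size is 14.3% of the axis genes, 5.26% of the recombination genes, 11.8% of the sex body genes and 9.52% of the piRNA genes, against 3.71% of all genes. None of the synaptonemal complex and axis genes rose and 2 of 14 tested fell. They were Tex12, at 72.6 and 75 CPM in HFD and 81.8 and 92.3 in ND (log2 -0.24, SE 0.05, adjusted p = 0.0248), and 4930447C04Rik (log2 -0.21, adjusted p = 0.036), and the median of the list was -0.10. Neither kept the call with equal bins (log2 -0.14 and -0.11). Of 19 recombination genes 1 fell, Spata22, at under 1 CPM in each library. Of 17 sex body and DNA damage genes 2 fell: Topbp1, at 43.5 and 46.5 against 51.5 and 51.2 CPM (log2 -0.19, adjusted p = 0.045), and Scml2, at 0.522 to 2.13 CPM. Topbp1 lost the call with equal bins (log2 -0.09). Of 21 piRNA genes, Tdrd6 rose (348 and 338 against 310 and 312 CPM, log2 0.14, adjusted p = 0.0484) and Btbd18 fell at under 1 CPM. Without HFD 1 the calls of 4930447C04Rik (adjusted p = 0.247), Topbp1 (0.352) and Tdrd6 (0.331) were lost, and without ND 2 that of Tex12 (0.0766). Tdrd6 (log2 0.13), Spata22 (-1.41) and Btbd18 (-1.35) lost the call with equal bins and Scml2 kept it. Spata22 lost its call without HFD 1, HFD 2 or ND 1 (0.054 to 0.116) and Btbd18 without HFD 1, HFD 2 or ND 2 (0.0598 to 0.204).

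Genes for exit from prophase and division were the list with most rises. Of 21 tested, 5 rose (23.8%, against 2.21% of all genes) and 0 fell, with a median of 0.10. Aurkc, the meiotic aurora kinase gene, stood at 41.7 and 39.8 CPM in HFD and 34.9 and 32.2 in ND (log2 0.28, SE 0.05, adjusted p = 0.0136). Plk1 stood at 31.7 and 32.4 against 28.0 and 25.9 CPM (log2 0.25, adjusted p = 0.028). Incenp, of the same complex as the aurora kinases, had a log2 change of 0.22 (adjusted p = 0.0436) and Ccnb1 of 0.21 (adjusted p = 0.0452). The fifth was Sgo2a, the shugoshin that protects centromeric cohesin (log2 0.19, adjusted p = 0.0216), named after its value was seen. With equal bins 1 of the 21 rose, and in members with a late score below 0 none did. In the equal draw the log2 change was 0.21 for Aurkc, 0.15 for Plk1, 0.18 for Incenp and 0.15 for Ccnb1. Aurkc was higher in both HFD libraries within each bin, with ratios of 1.13, 1.15, 1.14 and 1.14, and in Plk1, Incenp and Ccnb1 the groups overlapped in 2 of the 4 bins. Ccnb1 lost its call without HFD 1, HFD 2 or ND 1 (adjusted p = 0.0522 to 0.117), Incenp without HFD 2 (0.0656) or ND 2 (0.216), and Plk1 without ND 2 (0.0939).

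Of 21 pachytene-onset genes 1 rose, Adam3, at 446 and 432 CPM against 398 and 391 (log2 0.15, adjusted p = 0.0355), and 0 fell. It lost the call with equal bins (log2 0.09). The log2 changes of Ldhc (0.08), Hspa2 (0.04) and Hist1h1t (0.04) did not pass, with adjusted p of 0.239, 0.581 and 0.641. The 1 call is 4.76% of the list, against 3.71% of all tested genes. None of 9 tested X-linked parent genes was called (median -0.15), and of 12 retrogenes Rbmxl2 fell, at 258 and 251 against 278 and 303 CPM (log2 -0.19, adjusted p = 0.029), 1 call or 8.33% of that list. Over the whole X, 1 of 391 tested genes rose and 9 fell (2.56% in all), with a median of -0.16. Adam3 also lost its call without HFD 1 (adjusted p = 0.245). Rbmxl2 lost it with equal bins (log2 -0.15, 0.0824) and without ND 2 (0.0869), and was lower in both HFD libraries in each bin, with ratios of 0.87, 0.90, 0.91 and 0.87.

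The metabolic and stress lists held 0 to 2 calls each, against 3.71% of all tested genes: 11.1% of the glucose and lactate list, 0 of the mitochondrially encoded list, 3.85% of the nuclear respiratory chain list, and 5.56% each of the fatty acid and cholesterol lists. With 13 to 26 genes a list, 1 call is a share near that of all genes. Of 18 genes of glucose and lactate use 0 rose and 2 fell. Tpi1, the glycolytic triosephosphate isomerase gene, stood at 186 CPM in both HFD libraries and 231 and 223 in ND (log2 -0.29, SE 0.04, adjusted p = 0.00134). Its ratio of HFD to ND was 0.82, 0.80, 0.81 and 0.82 in bins 1 to 4, and the call held with equal bins. Gpi1, the glucose-6-phosphate isomerase gene, stood at 31.9 and 32.0 against 36.6 and 36.7 CPM (log2 -0.20, adjusted p = 0.0401). None of 13 mitochondrially encoded genes was called, and of 26 nuclear respiratory chain genes only Cyc1, of complex III, fell (82.2 and 84.8 against 96.3 and 91.1 CPM, log2 -0.17, adjusted p = 0.0472). Of 18 fatty acid genes Acadm, which encodes an acyl-CoA dehydrogenase, fell at 2.85 to 5.41 CPM (log2 -0.69, adjusted p = 0.0157). Of 18 cholesterol synthesis genes Hmgcs1 fell (17.2 and 17.9 against 20.1 and 21.6 CPM, log2 -0.25, adjusted p = 0.0466). With equal bins Gpi1 kept its call, and Cyc1 (log2 -0.08, adjusted p = 0.411), Acadm (-0.56, 0.0643) and Hmgcs1 (-0.24, 0.0693) lost theirs. Acadm was lower in both HFD libraries in each bin, with ratios of 0.63, 0.65, 0.66 and 0.64. Acadm and Hmgcs1 were highest in cells of no class, at 53.1 and 87.2 CPM. Tpi1 and Gpi1 were highest in condensing spermatids, at 442 and 635 CPM, against 206 and 34.3 in pachytene cells. Calls were also lost for Gpi1 without HFD 1, HFD 2 or ND 2 (adjusted p = 0.0639 to 0.16), for Cyc1 without HFD 1 (0.271) or ND 1 (0.0955) and for Hmgcs1 without HFD 1 (0.208) or ND 2 (0.184).

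Called genes made up 4.55% of the antioxidant list, 12.5% of the heat shock list, 13.3% of the endoplasmic reticulum stress list and 5.88% of the apoptosis list, 1 or 2 genes in each, against 3.71% of all tested genes. Of 22 antioxidant genes Prdx4, a peroxiredoxin gene on the X, fell (13.5 and 14.1 against 17.4 CPM in both ND libraries, log2 -0.33, adjusted p = 0.0161). Of 16 heat shock chaperones Hspe1, the mitochondrial co-chaperonin gene, fell (13.1 and 12.8 against 14.9 and 18.5 CPM, log2 -0.37, adjusted p = 0.0373), and Hspa1b fell at under 1 CPM. Both were highest in cells of no class, at 98.3 and 8.97 CPM. Of 15 endoplasmic reticulum stress genes 2 rose: Ddit3, which encodes CHOP, at 314 and 300 against 283 and 268 CPM (log2 0.16, adjusted p = 0.0489), and Hspa5, which encodes BiP, at 400 and 388 against 356 and 355 CPM (log2 0.15, adjusted p = 0.0384). Neither kept the call with equal bins (log2 0.12 and 0.11). Within each bin the ratios were 1.06 to 1.08 for Ddit3 and 1.04 to 1.09 for Hspa5, without overlap, which is no separate evidence. Of 17 apoptosis genes Bcl2l11, which encodes BIM, fell (5.96 and 5.55 against 7.65 and 8.39 CPM, log2 -0.48, adjusted p = 0.0197). Bcl2l11 and Prdx4 were highest in elongating spermatids, at 191 and 543 CPM, against 6.89 and 15.6 in pachytene cells. With equal bins Hspe1 lost its call (log2 -0.33, adjusted p = 0.0748), and Prdx4, Hspa1b and Bcl2l11 kept theirs. With DESeq2 the calls of Prdx4, Hspe1 and Bcl2l11 were lost, and that of Prdx4 also when marked doublets were left out. Without HFD 1 the calls of Prdx4 (adjusted p = 0.0623), Hspa1b (0.0735), Ddit3 (0.316) and Hspa5 (0.278) were lost, and without ND 2 those of Hspe1 (0.245) and Ddit3 (0.135).

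The genes that chose the cells are given by value only, since a test within cells chosen by them is no test. The log2 ratio of HFD to ND was -0.01 for Piwil1, -0.27 for Pou2f2, 0.14 for Mybl1 and 0.20 for Pou5f2. Among the late set it was 0.46 for Aurkb, 0.38 for Ccna1, 0.15 for Aurka and 0.03 for Cdk1. The 29 scoring genes stayed among the 18356 tested, and 6 of them are in the 681 calls (3.71%), from which nothing is read.

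Whether the diet change differed between pachytene cells and their neighbours was tested as an interaction of class and diet with the library as a term. Against early spermatocytes 0 of 19681 genes (0%) passed in edgeR's quasi-likelihood test, with 1467 at an unadjusted p under 0.05, and leaving out 1 library gave 25 without HFD 2, 17 without ND 1 and 62 without ND 2. Against late spermatocytes 210 of 19156 (1.1%) passed, of which 146 had the more positive change in pachytene cells. This count fell to 3 without the library term and was 650 without HFD 1, 1026 without HFD 2, 37 without ND 1 and 43 without ND 2. Ptgds had a log2 change of -0.96 in pachytene cells and -0.05 in late spermatocytes (difference -0.92, SE 0.08, adjusted p = 7.07e-09). C2cd4b had -0.13 and 0.36 (difference -0.48, SE 0.10, adjusted p = 0.0111), of which neither passed alone (adjusted p = 0.174 and 0.105). Dydc1, which climbs along the bins from 23.0 to 84.0 CPM, had 0.27 and -0.12 (difference 0.40, SE 0.05, adjusted p = 2.27e-05), and its change in late spermatocytes did not pass alone (adjusted p = 0.125).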

How the data were processed

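The deposited matrices hold UMI counts per gene and cell, made by the authors with build mm10, per the submitters' processing notes; the aligner is not given in the sources used here. All 55450 gene identifiers matched GENCODE M21. The dense copies of the same counts, of which some end in the middle of a line, were not used here. Scores, classes and bins were computed with Python 3.11.15 and doublets marked with the Scrublet of scanpy 1.11.5. Counts of members were summed per library and tested with edgeR 4.0.16 (filterByExpr, TMM, quasi-likelihood test, Benjamini-Hochberg adjustment over all tested genes, threshold 0.05), HFD against ND, 2 libraries each. Class levels are plain CPM and have no test. DESeq2 1.42.0, limma-voom 3.58.1, other scalings, other cell filters, a replicate block and leaving out each library were tried as alternatives, and scripts were tested on simulated data. Genes named between diets were up to 12 in each direction with the largest change at 20 CPM or more and groups that did not overlap, plus up to 4 called genes of each list; class genes were the 20 with the largest ratio at 50 CPM or more. Neighbouring runs and single markers were named after their values were seen. The members and lists were chosen with earlier results of these data known. Libraries of a group differed beyond sampling noise (chi-square per gene 2.42 in HFD and 3.91 in ND). Intervals cover counting error only. An interaction result was left out and is not reported here.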

Additional observations from a re-analysis of the deposited data

Results flagged for a closer look

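The change between diets differed between pachytene and late spermatocytes in 210 of 19156 genes by the interaction test of edgeR (Benjamini-Hochberg adjusted). The 3 genes described here are among the largest differences at 20 CPM or more outside the scoring genes. They are not all the genes that passed. The difference was -0.92 on the log2 scale for Ptgds (adjusted p = 7.07e-09), with -0.96 in pachytene cells and -0.05 in late spermatocytes. The pachytene change was -0.38 (adjusted p = 0.117) when cells marked as doublets were left out. Ptgds was highest in cells of no class, at 2241 CPM against 35.7 in pachytene cells. The difference was -0.48 for C2cd4b (adjusted p = 0.0111) and 0.40 for Dydc1 (adjusted p = 2.27e-05). With groups of 2 libraries no library could be examined for standing apart.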

How the results depend on the processing

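Of the 48 genes named by rule between diets, none changed direction under an alternative that tested it; genes named otherwise were not followed. Against 681 genes called between diets, DESeq2 called 372, edgeR without a filter on low counts 10, a test for changes beyond 1.5-fold 6, equal bins 371 and members with a late score below 0 44. Leaving out 1 library gave 327 to 1948 (327 without HFD 1, 1122 without HFD 2, 1948 without ND 1, 657 without ND 2), and without HFD 1 16 of the 48 genes lost the call. The loss was 43 of 48 without a filter, 46 of 48 beyond 1.5-fold, 30 of 45 at a late score below 0, 18 of 48 with equal bins and 14 of 43 with DESeq2. Another normalisation (693), limma-voom (611), no doublets (716), a mitochondrial limit of 10% (641), a score cut of 1.5 (691), a margin of 0.5 (477) and at least 5000 UMIs (592) stayed within 1.5 times. Higher genes made up 59.5% of calls, 74.5% with DESeq2, 100% without a filter and 44.2% with equal bins. With the replicate number as a block 1162 genes passed and all 48 named genes kept the call. The numbers share only a label: same-numbered libraries had a correlation of deviations of 0.10 over 5996 genes, with 2 pairs. The interaction with early spermatocytes went from 0 to 25 without HFD 2, 17 without ND 1 and 62 without ND 2. That with late spermatocytes went from 210 to 650 without HFD 1, 1026 without HFD 2, 37 without ND 1, 43 without ND 2 and 3 without a library term. The diet difference in mean late score, 0.159, was 0.186 with a score cut of 1.5 and 0.0825 in members with a late score below 0, and that in early score, 0.00594, was 0.0595 with a score cut of 1.5. The share of pachytene cells kept its direction and call in all 11 alternatives, with 0.24 to 0.43 when 1 library was left out. With 1 library left in a group, that library is assumed to vary like the others. The cause of these shifts was not tested.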

Other observations

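Called genes of pachytene cells lay beside each other at several places. In 22 runs, 2 or more neighbouring tested genes were called in the same direction. Of all tested genes 2.21% were called higher and 1.5% lower, and at these rates some runs arise from position alone. The number of runs was not tested against that. Coordinates are those of GRCm38. Besides Psmg2 and Ptpn2, their neighbour Cep76, a centriole protein gene, rose (12.7 and 13.3 CPM in HFD, 6.84 and 7.39 in ND, log2 0.87), and the 3 genes lie at chr18:67617800-67724595. Cep76 had log2 changes of 0.81 in early spermatocytes (adjusted p = 0.0094) and 1.00 in late spermatocytes (adjusted p = 0.0204). Its change in early round spermatids, 0.58, did not pass (adjusted p = 0.0569). Ccl28, a chemokine gene next to Tmem267, rose as well (13.8 and 12.1 against 7.11 and 8.15 CPM, log2 0.76), at chr13:119487261-119654359. Ccl28 passed in late spermatocytes (log2 0.51), and not in early spermatocytes (0.44) or early round spermatids (0.20).

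The serine protease genes Prss39 and Prss40 and the adjacent 1700101I19Rik rose by 0.25 to 0.27 on the log2 scale at chr1:34498410-34579711. Prss39 is also among the steepest climbers over the bins, with 75.5 CPM in bin 1 and 281 in bin 4. The secretoglobin pseudogenes Scgb2b22-ps and Scgb2b23-ps with Gm12763 rose by 0.18 to 0.37 at chr7:33604264-33659268, and counts of such near-identical copies are uncertain. The kallikrein genes Klk1b27, Klk1b21, Klk1b16 and Klk1b24, also near-identical, fell at 0 to 1.46 CPM at chr7:44052290-44192455. Prm3, next to the scoring gene Tnp2, fell by 0.28.

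Among the 44 genes called in members with a late score below 0 were falls outside the scoring sets. At the highest levels stood Tpi1 (log2 -0.29), Prm3 (-0.31), Gm9999 (-0.27), Fam229a (-0.31), Stard10 (-0.29) and Ropn1 (-0.33). Ropn1 encodes a protein of the sperm tail sheath. Of those that rose, Nmnat3 (0.32) encodes a mitochondrial NAD-synthesising enzyme, and Spag1 (0.30) an assembly factor of tail dynein arms. These genes were named after their values were seen.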
